A study of Mus musculus with 6 samples.

Results

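The 3′ untranslated regions (3′ UTRs) of mRNAs gave rise to 2241635 distinct small RNA sequences in cultured mouse spermatogonial stem cells. A sequence was counted among them when it was 25 to 31 nt long, matched no annotated small RNA exactly, matched the sense strand of exactly 1 gene, and lay wholly within the 3′ UTR of that protein-coding gene's longest coding transcript. They were drawn from 10963853 distinct sequences of 18 to 35 nt in the series, and 14449 of the 20778 coding genes with a 3′ UTR of at least 25 nt held at least 1 of them. The choice used length, annotation and position, and no read count.

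Piwi-interacting RNAs (piRNAs) are germ cell small RNAs that are bound by Piwi proteins such as MILI, begin mostly with uridine, and in animals carry a 2′-O-methyl group on their last nucleotide that the methyltransferase HEN1 adds. Best known for silencing transposons, piRNAs are also cut from long single-stranded precursors, among them the 3′ UTRs of a subset of mRNAs in the testis. Sodium periodate (NaIO4) oxidises RNA ends that carry free 2′ and 3′ hydroxyl groups, so that an adapter cannot be joined to them, while methylated ends are protected.

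The cells came from a 15-day-old male F1 mouse of a C57BL/6 by DBA2 cross with an actin-EGFP transgene, although the strain is listed as C57BL/6 alone, and they were grown on embryonic fibroblast feeders. The 6 groups were small RNAs bound by MILI in wild-type cells without NaIO4 (immunoprecipitate, antibody MABE363), untreated mili-/- cells (Mili knockout), mhen1-/- cells (Hen1 knockout) after NaIO4, untreated mhen1-/- cells, wild-type cells after NaIO4 and untreated wild-type cells. The knockouts were made with Cas9 and picked as single colonies, so each is a clone and not a population, and the treatment was 200 mM NaIO4 on ice for 1 h. Total RNA was used for 5 libraries, and these carried spike-ins that were not used here. Each group had 1 library, so no test between groups was possible, the intervals given cover counting error only, and every comparison is between libraries. The small RNAs do not measure the Hen1 or Mili mRNA, so the knockouts could not be checked from these counts.

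Reads of 18 to 35 nt numbered 25240941 in the immunoprecipitate, 4808088 in mili-/- cells, 2604390 in NaIO4-treated mhen1-/- cells, 11702714 in mhen1-/- cells, 10282416 in NaIO4-treated wild type and 7322408 in wild type. All shares below are shares of these reads, so a share also moves when other small RNAs change. Of the distinct 3′ UTR sequences, 77.8% were seen in 1 library alone, 1155585 of them in the deeply sequenced immunoprecipitate, and 10744 were seen in the 5 libraries other than mili-/- cells.

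The most abundant 3′ UTR piRNA of at most 30 nt in the immunoprecipitate is shown for 9 of the 10 genes with most reads there, to show what these RNAs look like and where in the message they start. They are written 5′ to 3′ as DNA letters, with capitals for a T at the first base, which is the uridine of the RNA, and for an A at base 10.
D10Wsu102e: TaactcgagAgaaaaccacacctgatg
Abl2: Tagagatctgcactttgtagttgaag
Tmem245: Tcttccgaaggtccagagttcagatccc
Gabpb2: Taagagaaagaactgtagctgggcagt
Rab11fip4: Tgacatcgtttagctgctctgctaaga
Trim71: Tgagaagtctccaaacctgtactccgtt
Cbx5: Tagaaatagggaaccgggattctagt
Eif4ebp2: TcactgaacAgcggtctgcacagagcggc
Fbxo41: Taaccgaattcctctgctcagaacgtg
All 9 began with T, and 2 had an A at base 10. In build GRCm38 (mm10) the D10Wsu102e sequence lay at chr10:83381475-83381501 on the plus strand, Abl2 at chr1:156646324-156646349 (plus), Tmem245 at chr4:56875806-56875833 (minus), Gabpb2 at chr3:95183958-95183984 (minus) and Rab11fip4 at chr11:79696711-79696737 (plus). The Trim71 sequence lay at chr9:114509691-114509718 (minus), Cbx5 at chr15:103197102-103197127 (minus), Eif4ebp2 at chr10:61431595-61431623 (minus) and Fbxo41 at chr6:85471957-85471983 (minus), each in a 3′ UTR exon. Their starts were 1043 to 15553 nt beyond the stop codon. The Trim71 sequence had 3554 reads in the immunoprecipitate, 0 in mili-/- cells, 12 in NaIO4-treated mhen1-/- cells, 196 in mhen1-/- cells, 779 in NaIO4-treated wild type and 220 in wild type. None of the 9 had a read in mili-/- cells, and no 1 of them made up more than 11.3% of its gene's reads in the immunoprecipitate, so each gene gave many different sequences. The Tmem245 sequence needs care: 27.5% of the Tmem245 reads in the immunoprecipitate were 1 base from a sequence outside the set with at least 10 times their reads there, against 0.478% over all genes, and nuclear tRNAs are not among the annotated small RNAs used.

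The 3′ UTR piRNAs were a large class that was nearly absent from the mili-/- library. In these cultures, fewer cells of a type and less RNA per cell cannot be told apart. Their share of reads was 23.97% (95% interval 23.95 to 23.98) in the immunoprecipitate, 0.180% in mili-/- cells, 4.60% in NaIO4-treated mhen1-/- cells, 16.0% in mhen1-/- cells, 22.5% in NaIO4-treated wild type and 11.8% in wild type. The immunoprecipitate and NaIO4-treated wild type were highest and the mili-/- library was lowest by far. Coding sequences gave a smaller share in every library but mili-/- cells, at 10.9%, 0.267%, 1.46%, 5.05%, 8.20% and 4.65% in the same order of libraries. The 5′ UTRs gave 1.07% in the immunoprecipitate and 0.383% in wild type. 3′ UTRs held 2.20 reads per coding-sequence read in the immunoprecipitate, 0.676 in mili-/- cells, 3.18 in mhen1-/- cells and 2.54 in wild type.

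**Figure D1:**
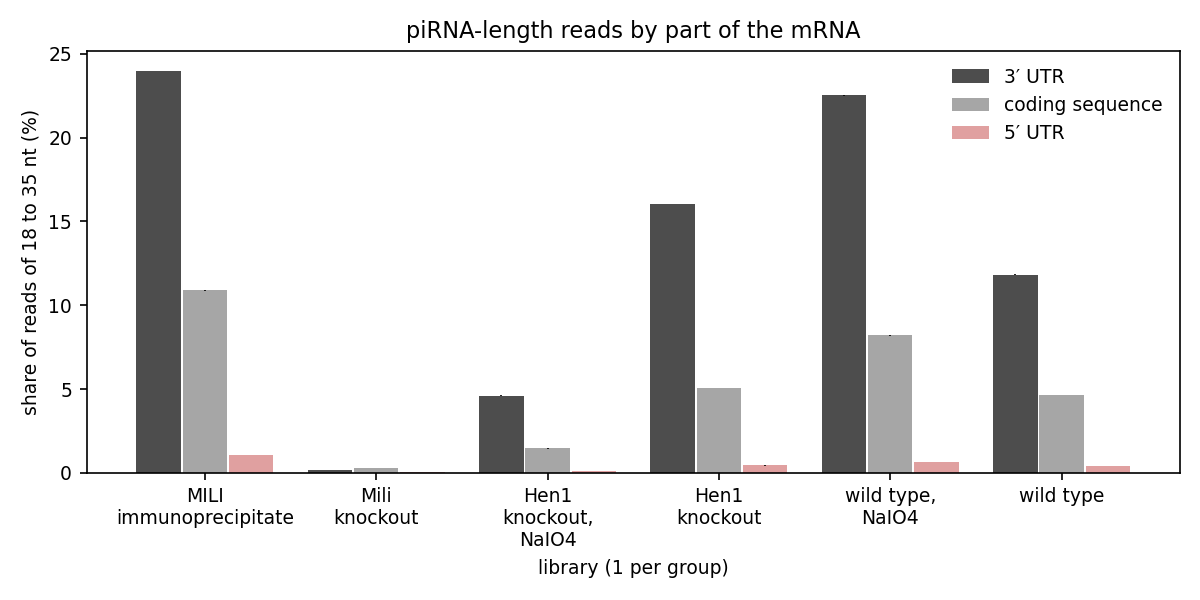
Share of reads of 18 to 35 nt (vertical axis, percent) that were 25 to 31 nt long and came from 3′ UTRs, coding sequences or 5′ UTRs, for each of the 6 libraries; thin lines are 95% counting intervals. The 3′ UTR bar is the highest of its library except in mili-/- cells, where it is 0.180% against 0.267% for coding sequences.

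With NaIO4 the 3′ UTR share was higher in wild type and lower in mhen1-/- cells than without it. The treated library over the untreated one gave a ratio of 1.91 (95% interval 1.90 to 1.91) in wild type, and 0.287 (0.285 to 0.289) in mhen1-/- cells, which is 3.49-fold lower. The mhen1-/- ratio was 6.65-fold (6.61 to 6.69) below that of wild type. The microRNAs, which lack the methyl group, moved down in both: their share was 1.47% in treated and 19.2% in untreated wild type, and 2.57% in treated and 7.33% in untreated mhen1-/- cells. Set against microRNA reads, 3′ UTR reads after NaIO4 stood 24.9-fold higher in wild type and 1.22-fold lower in mhen1-/- cells. The direction was the same on both scales in each genotype, and the 3′ UTR reads of mhen1-/- cells were close to the microRNAs of these cells in their response. Per piRNA-length read outside the small RNA classes the ratios were closer to 1, at 1.23 in wild type and 0.714 in mhen1-/- cells. The response was alike in coding-sequence reads, with ratios of 1.77 in wild type and 0.290 in mhen1-/- cells. The size window matters for the 3′ UTR ratios. Of 3′ UTR reads of 18 to 35 nt, 64.2% were 25 to 31 nt long in treated and 87.1% in untreated mhen1-/- cells. In wild type it was 88.3% treated and 84.6% untreated. The 3.49-fold lower share in mhen1-/- cells therefore holds for this window only.

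Gene by gene the response to NaIO4 had the same direction in nearly all tested genes of each genotype, but its size varied. The 5th to 95th percentiles of the ratio were 1.39 to 2.68 in wild type and 0.152 to 0.447 in mhen1-/- cells. Genes of 200 or more 3′ UTR reads, summed over the 2 libraries, were called changed when their read share differed at least 2-fold. In wild type 812 of 2015 genes were at least 2-fold higher with NaIO4 (40.3%) and 1 was lower, against 37.2% higher over all gene regions with the same minimum (3′ UTRs, coding sequences and 5′ UTRs) and 0.272% lower. The median ratio was 1.93, so the 2-fold line ran through the middle of the genes, and 2007 of the 2015 lay above 1. In mhen1-/- cells 1303 of 1341 genes were at least 2-fold lower with NaIO4 (97.2%) and 0 were higher, against 96.8% lower over all gene regions, with a median 3.53-fold lower. The background holds the 3′ UTRs themselves, and among coding sequences alone 32.3% were at least 2-fold higher in wild type and 95.9% lower in mhen1-/- cells. In 1 library alone, 200 reads were reached by 1282 genes in untreated and 105 in treated mhen1-/- cells. In wild type it was 784 untreated and 1622 treated. Most genes thus passed the minimum through the library with more reads. This favours lower calls in mhen1-/- cells and higher calls in wild type, also in the background. Counted per microRNA read, 103 of the 1341 genes were at least 2-fold changed in mhen1-/- cells (7.68%, against 10.4% over all gene regions) and 2015 of 2015 in wild type (100%, against 99.9%).

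**Figure D2:**
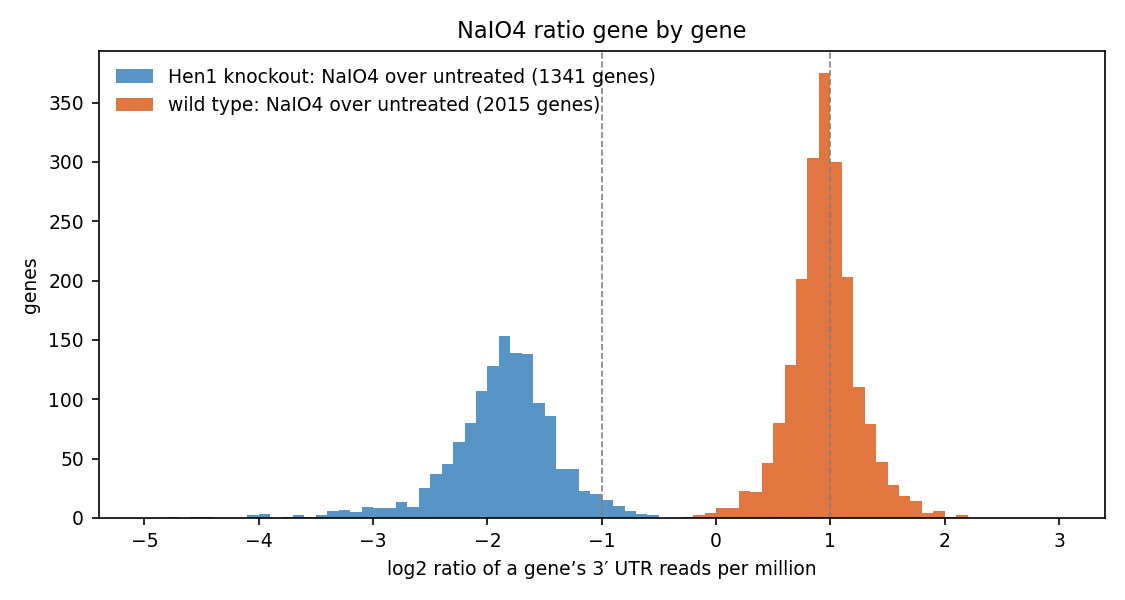
Number of genes (vertical axis) by log2 ratio of 3′ UTR reads per 1000000 reads of 18 to 35 nt, NaIO4 over untreated, in mhen1-/- cells (blue, 1341 genes) and wild type (orange, 2015 genes) for genes of 200 or more reads over both libraries; dashed lines mark 2-fold. Nearly all wild-type genes lie above 0 and nearly all mhen1-/- genes below it.

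The genes farthest from the rest under NaIO4 were few. In wild type the highest ratios among 1049 genes of 500 or more reads were those of Fzd7, a Wnt receptor, with 445 reads in treated and 102 in untreated cells (ratio 3.11, 2.51 to 3.85), Phc3, a Polycomb protein, with 471 and 108 reads (3.11), and Slc25a15, a mitochondrial ornithine carrier, with 421 and 98 reads (3.06). The lowest were Tmem38b, an ion channel of the endoplasmic reticulum, with 183 reads in treated and 828 in untreated cells (6.35-fold lower), Lars2, the mitochondrial leucyl-tRNA synthetase, with 2520 and 2119 reads (ratio 0.847), and Mphosph9, a centriolar protein, with 326 and 200 reads (1.16). In mhen1-/- cells the lowest ratios were those of Chaf1a, a chromatin assembly factor subunit, with 10 reads in treated and 553 in untreated cells (12.3-fold lower), Lpin1, a phosphatidate phosphatase, with 15 and 639 reads (9.48-fold lower), and Rab11fip1, a Rab11 effector, with 12 and 490 reads (9.09-fold lower). Lars2 was the only gene of 712 with a ratio above 1 there, with 948 and 2432 reads (1.75, 1.62 to 1.89). Next above the rest were Cxadr, the coxsackievirus and adenovirus receptor, at 0.542, and Mdc1, a DNA damage mediator, at 0.514.

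Nearly all of the 3′ UTR reads were missing in mili-/- cells. Their share was 65.5-fold lower in mili-/- cells than in wild type (64.2 to 66.9), with 8666 reads against 864953. It was 20.7-fold lower per piRNA-length read outside the small RNA classes, 22.2-fold lower with each distinct sequence counted once and 116-fold lower per microRNA read. Coding-sequence reads were 17.4-fold lower and 5′ UTR reads 11.9-fold lower, and the 3′ UTR reads per coding-sequence read were 3.76-fold lower in the knockout. Of 784 genes with at least 200 reads, 782 were at least 2-fold lower (99.7%, against 99% over all gene regions), 1 was at least 2-fold higher (against 0.195%) and 461 of the 784 had 0 reads in the knockout. Only 2 genes had 200 reads in mili-/- cells alone, so nearly all passed the minimum through wild type. This favours a lower call, also in the background, and the counts add little to the share itself. With genes at 0 placed at a floor of 3 reads the median was 97.9-fold lower, a value that the floor sets because most genes had 0 reads. The 20 leading genes together had 105 reads in mili-/- cells and 135352 in wild type, 846-fold lower (699 to 1025).

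Tmem38b and Lars2 did not follow the other genes. Tmem38b had 1559 reads in mili-/- cells and 828 in wild type (ratio 2.87, 2.64 to 3.12), and Lars2 had 2008 and 2119 (1.44, 1.36 to 1.53). Together they held 41.2% of the 3′ UTR reads of mili-/- cells and 0.341% of those of wild type, and without them the share was 111-fold lower in mili-/- cells, with 0.397 reads per coding-sequence read. Their reads differed from those of other genes also in wild type: 9.66% of Tmem38b reads and 28.03% of Lars2 reads began with T, against 86.5% over all genes. Tmem38b reads came from 14 distinct sequences in wild type, and 1 sequence held 47.6% of them. Ribosomal RNA outside the annotated biotypes and nuclear tRNAs were not among the references, so whether the Lars2 and Tmem38b reads come from these mRNAs was not tested. In the immunoprecipitate Tmem38b was 19.3-fold lower than in wild type, with 148 reads against 828, the lowest ratio of 1893 genes. Among 359 genes of 500 or more reads the next highest ratio was that of Tead1, a Hippo pathway transcription factor, with 10 reads against 513 in wild type (33.7-fold lower). Genes with fewer reads also stayed near their wild-type level, such as 1110051M20Rik with 82 reads in mili-/- cells and 109 in wild type, Cd320 with 56 and 81, and the histone gene Hist4h4 with 37 and 24. These last 3 were named after their values were seen. Among the 359 genes, with those at 0 placed at 3 reads, the kinase gene Abl2, the desaturase gene Scd2 and Gabpb2, a subunit gene of GA-binding protein, ranked lowest, each with 1 read in mili-/- cells against 9846, 8921 and 6282 in wild type. Genes at 0 may lie lower still, such as Mafg with 0 reads in mili-/- cells against 4034 in wild type.

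The reads that remained in mili-/- cells began with T far less often. Reads beginning with T were 89.5% in the immunoprecipitate, 26.5% (25.5 to 27.4) in mili-/- cells, 87.1% in NaIO4-treated mhen1-/- cells, 87.9% in mhen1-/- cells, 87.6% in NaIO4-treated wild type and 86.5% in wild type. Without Lars2 and Tmem38b it was 33.97% in mili-/- cells. The mili-/- library stood apart, and the other 5 lay within 3 points of each other. T-starting 3′ UTR reads were 214-fold lower in mili-/- cells than in wild type, and reads with another first base 12.01-fold lower. Base composition of the source 3′ UTRs, weighted by reads in the immunoprecipitate, was 29.1% T. Of 3′ UTR reads of any length from 18 to 35 nt, 31.8% were 25 to 31 nt long in mili-/- cells and 84.6% in wild type. The A at base 10, a mark of piRNAs made by cleavage opposite another piRNA, was found in 28.4% of reads in the immunoprecipitate, 27.2% in mili-/- cells and 28.9% in wild type, beside 25.1% A in the weighted composition. Coding-sequence reads began with T less often, at 83.0% in the immunoprecipitate and 78.6% in wild type.

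The 3′ UTR share was 2.03 times as high in the immunoprecipitate as in wild type (2.02 to 2.03), below the 2.34 of coding sequences and the 2.79 of 5′ UTRs. This depended on the scale: the ratio was 1.17 per piRNA-length read outside the small RNA classes, 1.01 with each distinct sequence counted once and 45.9 per microRNA read. Of 3506 genes, 2151 were at least 2-fold higher in the immunoprecipitate (61.4%, against 66.9% over all gene regions) and 11 were lower (0.314%, against 0.234%). In the immunoprecipitate alone 3252 genes had 200 reads, and in wild type alone 784. Most genes thus passed the minimum through the deeper immunoprecipitate, which favours a higher call, also in the background. The 3 highest ratios below passed their minimum of 500 reads in the same way. The highest ratios were those of Ankrd63, an ankyrin repeat protein, with 500 reads in the immunoprecipitate and 12 in wild type (12.1, 6.82 to 21.4), Hist1h4a, a histone H4 gene, with 1323 and 48 (7.996), and Nav1, a microtubule-associated neuron navigator, with 1038 and 41 (7.34). Hist1h4a has a 3′ UTR of only 154 nt, and 1 sequence held 54.7% of its reads in the immunoprecipitate. The lowest beside Tmem38b were Olfr839-ps1 of the olfactory receptor family, with 372 reads in the immunoprecipitate and 466 in wild type (4.32-fold lower), and the vomeronasal receptor gene Vmn1r18, with 589 and 432 (2.53-fold lower). Both have reads from few sequences, 35 in wild type for Olfr839-ps1 and 25 for Vmn1r18.

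The leading genes held a similar share of the class in all libraries other than mili-/- cells. The 20 genes with most reads in the immunoprecipitate held 14.7% of its 3′ UTR reads, 1.21% in mili-/- cells, 15.9% in NaIO4-treated mhen1-/- cells, 16.6% in mhen1-/- cells, 15.4% in NaIO4-treated wild type and 15.6% in wild type. They gave a median of 1577 RPM (reads per 1000000 reads of 18 to 35 nt) in the immunoprecipitate, 0.624 in mili-/- cells, 273 in NaIO4-treated mhen1-/- cells, 1027 in mhen1-/- cells, 1454 in NaIO4-treated wild type and 747 in wild type. All 20 were higher with NaIO4 in wild type, by 1.71 to 2.15 times, and all 20 were lower with NaIO4 in mhen1-/- cells, by 3.08-fold to 4.39-fold. Between them and the many weak sources lay a long slope: 262 genes held 50% of the 3′ UTR reads of the immunoprecipitate, and 238 did so in wild type.

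**Figure D3:**
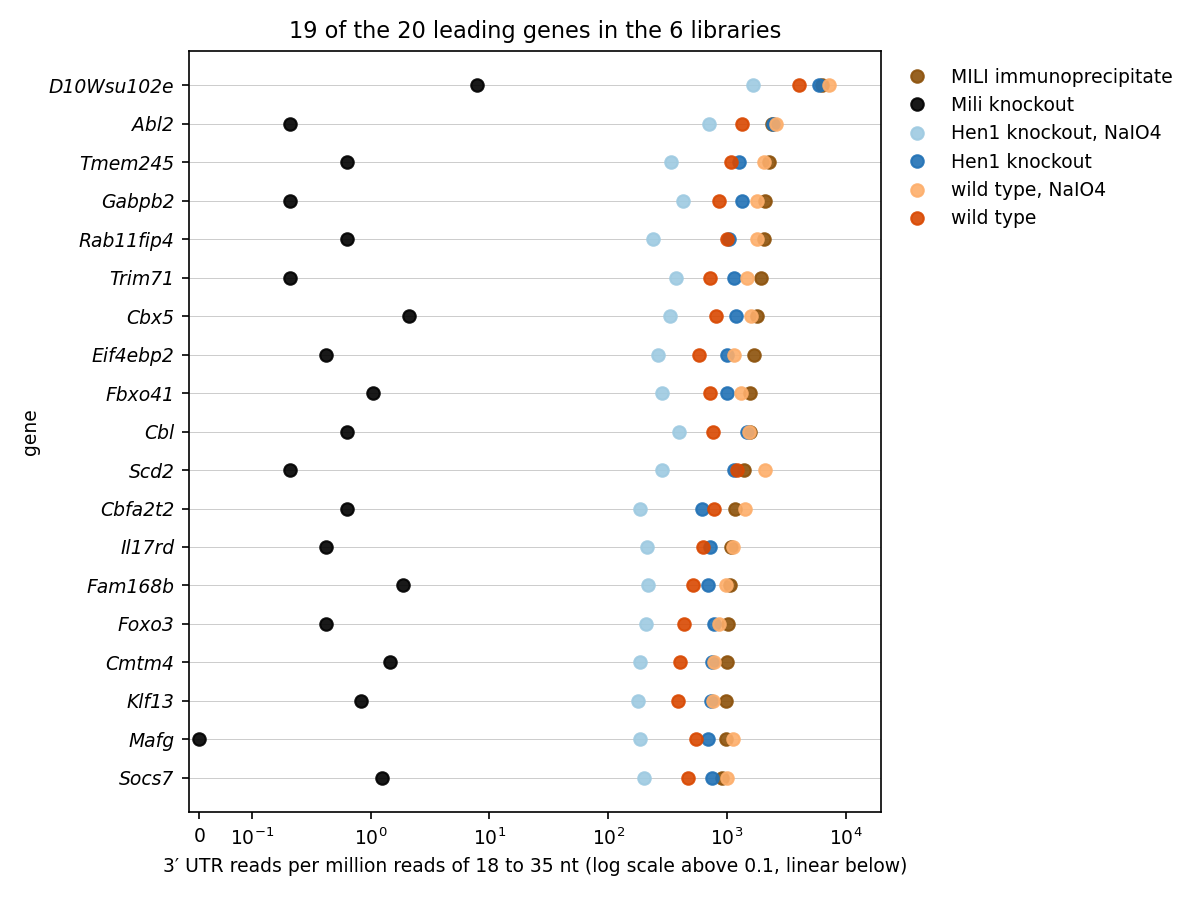
3′ UTR RPM (horizontal axis, logarithmic above 0.1) for 19 of the 20 genes with most such reads in the immunoprecipitate, with 1 point for each of the 6 libraries. The mili-/- points sit between 0 and 7.90, and the NaIO4-treated mhen1-/- library is the lowest of the other 5 libraries for each gene.

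D10Wsu102e, a gene without a settled function, led by a wide margin. It had 6330 RPM in the immunoprecipitate, 7.90 in mili-/- cells, 1666 in NaIO4-treated mhen1-/- cells, 6014 in mhen1-/- cells, 7188 in NaIO4-treated wild type and 4083 in wild type. Its annotated 3′ UTR is 122583 nt long, so per 1000 nt it gave 51.6 RPM in the immunoprecipitate, fewer than Fbxo41 (459), Rab11fip4 (394), Scd2 (379), Trim71 (353) or Abl2 (350). Abl2, which encodes a cytoskeletal tyrosine kinase, had 2399 RPM in the immunoprecipitate, 0.208 in mili-/- cells, 713 in NaIO4-treated mhen1-/- cells, 2457 in mhen1-/- cells, 2616 in NaIO4-treated wild type and 1345 in wild type. Scd2, a fatty acid desaturase gene, had 1387, 0.208, 286, 1138, 2081 and 1218 RPM in the same order of libraries. In both genes the mili-/- value stands for 1 read.

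The leading sources also included regulators of translation, chromatin and signalling. Trim71, a ubiquitin ligase of early development and a let-7 target, had 1947 RPM in the immunoprecipitate and 721 in wild type. Eif4ebp2, which holds back cap-dependent translation by binding eIF4E, had 1709 and 587. Cbx5 encodes the heterochromatin protein HP1 alpha, and had 1794 and 818. Cbl, a ubiquitin ligase acting on receptor tyrosine kinases, had 1572 and 770. Il17rd, an inhibitor of FGF signalling, had 1090 and 624, and the forkhead factor gene Foxo3 had 1022 and 437. In all 20 genes most piRNA-length reads fell in the 3′ UTR rather than elsewhere in the message. The 20 were chosen by their 3′ UTR reads in the immunoprecipitate, which favours this result. The 3′ UTR held 89.98% of the gene's reads in the immunoprecipitate for Mafg, a small Maf factor gene and the lowest of the 20, and 99.6% for D10Wsu102e.

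Lists of related genes are given to describe where some of these sources lie. They were drawn up with earlier results of these data known and include leading genes such as Trim71 and Abl2. Their counts are therefore no evidence of enrichment, which was not tested. The background holds 3′ UTRs of every length, and 13839 of its 20778 genes had any read in the immunoprecipitate. Of all 20778 coding genes with a 3′ UTR, 15.7% had at least 200 reads in the immunoprecipitate. Among 15 measured genes of the Lin28 and let-7 target list it was 10, led by Trim71, the cyclin gene Ccnd2 (18543 reads in the immunoprecipitate, 1937 in wild type), the RNA-binding protein gene Igf2bp1 (15576 and 1510) and the nuclear receptor gene Nr6a1 (8077 and 1011). Lin28b, which blocks let-7 maturation, had 4403 and 545. Of 26 genes of mRNA decay and deadenylation 17 reached 200 reads, led by the decapping enzyme gene Dcp2 (9195 reads in the immunoprecipitate, 951 in wild type) and the Argonaute genes Ago2 (8595 and 1080), Ago1 (6478 and 1019) and Ago3 (5523 and 587). Of 24 genes of receptor tyrosine kinase signalling it was 15, among them Abl2, Cbl, the adaptor gene Crkl (9653 and 1685) and the feedback inhibitor gene Spry4 (3075 and 393).

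Of 13 spermatogonial stem cell markers 9 reached 200 reads, led by Foxo1 (3154 reads in the immunoprecipitate, 389 in wild type), Lin28a (3030 and 404), Zbtb16 (1766 and 168) and Bcl6b (1762 and 256). Ubiquitin ligases had 11 of 20, translation initiation 10 of 16, the Rab11 and recycling endosome list 7 of 13, iron handling 5 of 10 and Polycomb and HP1 8 of 22. The piRNA pathway's own genes were near the background, with 3 of 19: Exd1 (2265 reads in the immunoprecipitate, 251 in wild type), Piwil2, which encodes MILI itself (1271 and 180), and Tdrkh (332 and 29). Ribosomal protein genes had 17 of 82, but their 3′ UTRs are short, and that of Rps29, 91 nt long, gave the highest density of the genes with 200 reads, at 1344 RPM per 1000 nt in the immunoprecipitate. Fth1, the ferritin heavy chain gene, gave 1018 from 150 nt. Of markers of other cells, 1 of 15 fibroblast genes reached 200 reads (Pdgfra, 860 reads in the immunoprecipitate and 196 in wild type), as did 0 of 10 meiotic genes and 0 of 5 Sertoli cell genes. Lists this short cannot be told from the 15.7% of all coding genes, so these counts name no cells. The mRNAs were not measured, so a source gene with few piRNAs may still be transcribed.

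Most genes of the lists went the way of the class, and no list can be told from it by these counts. With at least 200 reads, all 6 Lin28 and let-7 genes, all 9 of mRNA decay and all 5 of receptor tyrosine kinase signalling were at least 2-fold lower in mili-/- cells, beside 99.7% of all genes. All of these list genes reached 200 reads in wild type alone, which favours a lower call. With NaIO4 in mhen1-/- cells, 7 of 8, 11 of 11 and 8 of 8 were at least 2-fold lower, beside 97.2% of all genes, with medians 3.86-fold, 3.46-fold and 3.19-fold lower beside 3.53-fold for all tested genes. Over all genes this minimum was mostly passed through untreated cells, which favours a lower call here too. With NaIO4 in wild type the medians were 1.99, 1.95 and 1.97 beside 1.93. Lists with fewer genes strayed farther: the 6 translation initiation genes had a median of 1.64 with NaIO4 in wild type, and the 2 iron handling genes were 6.11-fold lower with NaIO4 in mhen1-/- cells.

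Source genes had long 3′ UTRs. The median annotated length was 5409 nt for the 20 leading genes, 2583 nt for the 3252 genes with at least 200 reads in the immunoprecipitate and 951 nt for all coding genes. Length alone gives more room for reads, so reads were also divided by the number of unique 28 nt start positions. Pooled over genes, 3′ UTRs of 4000 to 8000 nt gave 13.8 RPM per 1000 such starts in the immunoprecipitate and 6.49 in wild type. 3′ UTRs of 1000 to 2000 nt gave 3.53 in the immunoprecipitate and 1.76 in wild type, so the longer ones were also denser when pooled. The rise was not even, as 3′ UTRs of 25 to 500 nt gave 4.97 and 2.00. The median gene of 1000 to 2000 nt gave 0.645 RPM per 1000 nt in the immunoprecipitate. It was 1.44 for 4000 to 8000 nt and 0.847 from 8000 nt on. In mili-/- cells the pooled order was turned round, with 0.0274 for 4000 to 8000 nt and 0.0936 for 1000 to 2000 nt, of which Tmem38b alone gave much: without it 3′ UTRs of 1000 to 2000 nt gave 0.0425.

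Reads were denser in the 3′ UTR than in the coding sequence, and denser far from the stop codon than near it. The 3′ UTRs gave 8.38 RPM per 1000 unique starts in the immunoprecipitate, 0.0630 in mili-/- cells and 4.13 in wild type, and coding sequences gave 3.50, 0.0858 and 1.49. In the immunoprecipitate 3178 of 4908 genes were denser in the 3′ UTR, and in wild type 2195 of 3137 genes with at least 50 reads. In 1917 genes with a 3′ UTR of at least 2000 nt, a coding sequence of at least 1000 nt and 200 reads over the whole message in the immunoprecipitate, the density there was 6.45 over the last 1000 nt of the coding sequence, 5.95 over the first 100 nt of the 3′ UTR, 9.54 from 100 to 1000 nt and 19.2 from 1000 to 2000 nt. In wild type the same stretches gave 2.85, 2.80, 4.85 and 10.1. The last 100 nt of the coding sequence were denser than its last 1000 nt as a whole, at 8.01 in the immunoprecipitate and 3.81 in wild type. The density was lower, at 5.95 and 2.80, over the first 100 nt of the 3′ UTR, just past the stop codon. Beyond it the density was higher with distance up to 1600 to 1700 nt, where it stood at 22.1 in the immunoprecipitate and 13.1 in wild type, and from 1700 to 1800 nt it was 20.01 and 10.7. The gradient had nearly the same shape in NaIO4-treated and mhen1-/- libraries, at 3.50 to 3.76 times the coding-sequence density from 1000 to 2000 nt beside 3.54 in wild type. In mili-/- cells it ran the other way, at 0.114 over the last 1000 nt of the coding sequence and 0.0439 from 1000 to 2000 nt.

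**Figure D4:**
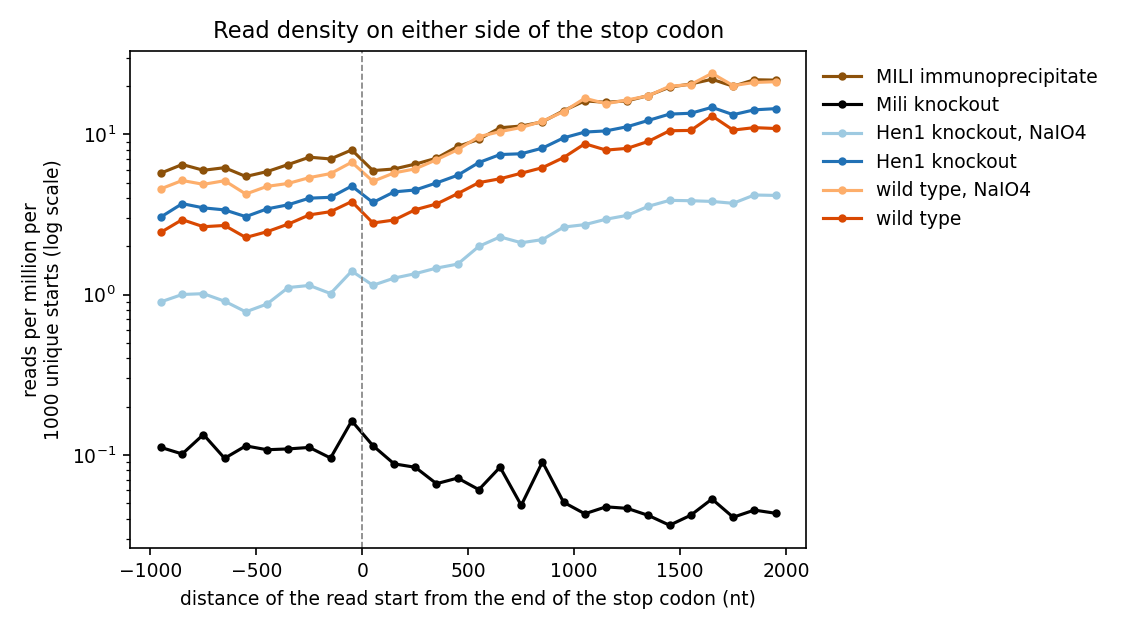
Density of 25 to 31 nt reads (vertical axis, logarithmic, RPM per 1000 unique starts) against distance of the read start from the end of the stop codon, in bins of 100 nt over 1917 genes, with 1 line for each of the 6 libraries. All lines but that of mili-/- cells rise beyond the stop codon, in the immunoprecipitate to a mean of 19.2 from 1000 to 2000 nt.

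Along the whole 3′ UTR, reads peaked past the middle. In 3119 genes with a 3′ UTR of at least 500 nt and 200 reads in the immunoprecipitate, cut into 10 deciles of equal length, the first decile after the stop codon held 0.396 times the reads expected from its unique starts in the immunoprecipitate and 0.389 times in wild type. The sixth decile held 1.36 times in the immunoprecipitate and 1.41 in wild type, and the last decile 0.835 and 0.740. With each gene given equal weight the first decile held 0.692 times in the immunoprecipitate and 0.567 in wild type, so the shape was flatter but had the same order. The last 50 nt before the annotated end gave 12.2 RPM per 1000 starts in the immunoprecipitate and 5.36 in wild type, below the 25.8 and 12.7 found 500 to 1000 nt before it.

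Most well-read start sites of wild type were found again in the deeper libraries. Of 13600 5′ ends with at least 10 reads in wild type, 99.4% were also read in the immunoprecipitate, 1.07% in mili-/- cells, 48.7% in the shallow library of NaIO4-treated mhen1-/- cells, 94.99% in mhen1-/- cells and 97.6% in NaIO4-treated wild type. Of the 102847 such ends of the deeper immunoprecipitate, 20.5% were read in NaIO4-treated mhen1-/- cells and 59.7% in wild type. Reads were spread over many ends: the 1000 commonest ends held 10.9% of 3′ UTR reads in the immunoprecipitate and 12.7% in wild type. Reads laid end to end, which are known from piRNAs cut stepwise from a precursor, stood out little. A 5′ end directly behind a 3′ end scored 1.16 times the mean of the other distances in the immunoprecipitate, 0.987 in mhen1-/- cells and 1.12 in wild type. The highest score lay at -20 nt in these libraries, where reads overlap, so the peak cannot show whether reads lie end to end. Against the distance 1 nt upstream, the directly adjacent one scored 1.05 times in the immunoprecipitate, 0.912 in mhen1-/- cells and 0.992 in wild type. Against the distance 1 nt downstream it scored 1.08, 0.958 and 1.06 times. The base after the 3′ end was T in 32.6% of reads in the immunoprecipitate, 35.996% in mili-/- cells, 29.2% in mhen1-/- cells and 32.2% in wild type, beside 29.1% in the weighted composition. The last base of the read itself was T more often, at 35.7% in the immunoprecipitate, 47.2% in mili-/- cells and 37.6% in wild type.

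Few of the sequences counted ran antisense to these 3′ UTRs. Antisense sequences were counted only when they matched no annotated transcript in sense, so those that also lie in another gene were left out. Sense sequences were not filtered for antisense matches, so the antisense shares are lower bounds. Antisense reads were 1.74% of all 3′ UTR reads of both strands in the immunoprecipitate, 12.3% in mili-/- cells and 1.9603% in wild type. Overlaps of 10 nt between the 5′ ends of sense and antisense reads, the mark of cleavage by Piwi proteins opposite each other, scored 1.94 times the mean of other overlaps in the immunoprecipitate, 3.32 in mhen1-/- cells and 3.60 in wild type, and 0 in mili-/- cells at every overlap. Antisense reads were concentrated in few genes: Mroh2a (21.6% in the immunoprecipitate, with 0 sense reads), Mfsd4a (17.5%, with 14 sense reads) and D10Wsu102e (10.8%). These 3 were named after their values were seen. Without them the 10 nt score was 1.87 in the immunoprecipitate, 3.14 in mhen1-/- cells and 3.89 in wild type, and D10Wsu102e alone gave 2.16, 3.65 and 3.07. Of antisense reads, 4.70% in the immunoprecipitate and 4.06% in wild type had such a partner.

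In mhen1-/- cells the 3′ UTR share was higher and the molecules were shorter. The share was 1.36 times as high in untreated mhen1-/- cells as in wild type (1.355 to 1.362), and 1.09 times for coding sequences. Set against all piRNA-length reads outside the small RNA classes the 3′ UTR share turned round, at 0.966 times the wild-type value. Of 1739 genes, 195 were at least 2-fold higher in mhen1-/- cells (11.2%, against 10.5% over all gene regions) and 18 were lower (1.04%, against 2.1%). The highest were Castor2, of an mTORC1 regulator family, with 860 reads in mhen1-/- cells and 130 in wild type (4.14, 3.44 to 4.98), Smad2, a TGF-beta signal transducer, with 519 and 81 (4.01), and Slc38a1, an amino acid transporter, with 526 and 89 (3.70). The lowest were Bpnt1, a bisphosphate nucleotidase, with 151 reads in mhen1-/- cells and 430 in wild type (4.55-fold lower), Vmn1r18 with 260 and 432 (2.66-fold lower) and the chaperone gene Hsp90aa1 with 252 and 405 (2.57-fold lower). Counted per microRNA read, 1603 of the 1739 genes were at least 2-fold changed (92.2%, against 88.8% over all gene regions). By share, 5 of 14 mRNA decay genes, 2 of 7 ribosomal protein genes, 1 of 3 iron handling genes, 1 of 5 Rab11 genes, 1 of 6 Polycomb and HP1 genes, 1 of 8 stem cell markers and 1 of 10 receptor tyrosine kinase genes were at least 2-fold higher, as were 0 of 9 Lin28 and let-7 genes, 0 of 7 ubiquitin ligases, 0 of 5 translation initiation genes and 0 of 2 piRNA pathway genes. The untreated wild-type library is the reference of this comparison, of mili-/- cells and of the immunoprecipitate, so these 3 are not independent.

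The change in length was graded. Reads of 25 nt were 4.34 times as high in share in mhen1-/- cells as in wild type, those of 26 nt 2.70 times, those of 28 nt 1.03 times and those of 31 nt 2.51-fold lower. Reads of 27 nt were 27.0% in mhen1-/- cells and 22.6% in wild type, and those of 28 nt 17.3% in mhen1-/- cells and 22.7% in wild type. At 4577 5′ ends with at least 20 reads in both libraries, the templated part was shorter on average in mhen1-/- cells at 4231 (92.4%), with a median difference of -1.01 nt. For comparison, NaIO4 in wild type left 52.7% of 5421 ends shorter, with a median of -0.0233 nt, and the immunoprecipitate 48.1% of 5584 ends, with a median of 0.0130 nt. In mhen1-/- cells 14.6% of reads had a templated part of 25 nt with NaIO4 and 14.0% without, counting reads of at least 23 nt. Shorter reads did differ. Of 3′ UTR reads of 18 to 35 nt in mhen1-/- cells, 23.5% were 20 to 24 nt long with NaIO4 and 9.89% without. Those of 18 to 19 nt were 10.2% with NaIO4 and 0.579% without.

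A single start site in the Il17rd 3′ UTR shows the change. It was taken, after its values were seen, from the 4 ends with most reads in both mhen1-/- cells and wild type. Its reads began 3272 nt into the 3′ UTR on the plus strand, with the 28 nt form at chr14:27104658-27104685, and the forms below are given from long to short, with capitals for an untemplated base added at the 3′ end.
Il17rd 30 nt: ttaaatgaacccaggaccaatagaacatgt
Il17rd 28 nt: ttaaatgaacccaggaccaatagaacat
Il17rd 26 nt: ttaaatgaacccaggaccaatagaac
Il17rd 26 nt with tail: ttaaatgaacccaggaccaatagaacT
Il17rd 25 nt with tail: ttaaatgaacccaggaccaatagaaT
The 30 nt form had 25 reads in mhen1-/- cells (2.81% of 890 at this end) and 289 in wild type (30.2% of 956). The 28 nt form had 144 in mhen1-/- cells (16.2%) and 556 in wild type (58.2%). The 26 nt form turned the other way, with 541 in mhen1-/- cells (60.8%) and 49 in wild type (5.13%). The tailed forms had 20 and 18 reads in mhen1-/- cells, against 1 and 0 in wild type. At another of the 4, in the 3′ UTR of the actin regulator gene Wasf2, the mean templated length was 27.7 nt in mhen1-/- cells and 28.9 nt in wild type, and at one in Scd2 it was 28.49 and 30.99 nt.

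Untemplated 3′ bases were more frequent in mhen1-/- cells than in wild type. Of reads whose first 20 nt placed them at a known start, 5.20% carried 1 to 3 untemplated bases in the immunoprecipitate, 10.2% in mili-/- cells, 14.5% in NaIO4-treated mhen1-/- cells, 15.9% (15.86 to 15.96) in mhen1-/- cells, 5.13% in NaIO4-treated wild type and 6.42% (6.37 to 6.47) in wild type. Both mhen1-/- libraries lay above the 4 others. With starts kept only where the first 20 nt occur in 1 gene, the shares were 3.37% in mili-/- cells, 14.6% in mhen1-/- cells and 5.09% in wild type. The added bases were mostly T (54.3% of tails in mhen1-/- cells, 55.9% in wild type) and A (35.7% and 24.0%), and 67.7% of tails in mhen1-/- cells were 1 nt long. All 20 leading genes were more tailed in mhen1-/- cells, at 13.6% to 19.9% of reads against 4.35% to 8.12% in wild type, and all 20 were shorter, by between -1.06 and -2.09 nt. Tails were more frequent on reads with a templated part of 25 nt than on those of 28 nt: 20.996% at 25 nt in mhen1-/- cells and 14.2% in wild type carried a tail, and 11.5% and 4.70% at 28 nt. Most of this difference lay in tails other than T. Reads with a T tail were 8.69% at 25 nt and 7.86% at 28 nt in mhen1-/- cells, and 4.62% and 2.89% in wild type. In mhen1-/- cells tailed reads were 3.73-fold lower in share with NaIO4 than without, and untailed reads 3.35-fold lower.

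**Figure D5:**
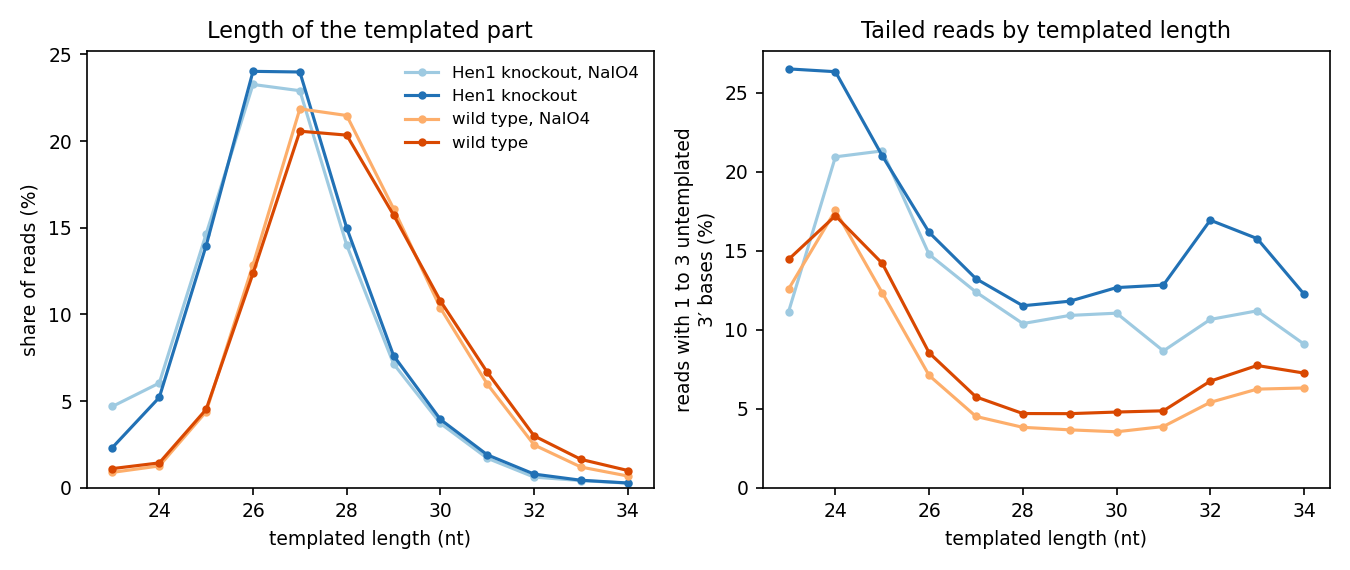
Left, share of 3′ UTR reads (vertical axis, percent) by length of the templated part (horizontal axis, nt); right, percent of reads at each templated length with 1 to 3 untemplated 3′ bases, in mhen1-/- cells and wild type with and without NaIO4. The mhen1-/- lines are shifted to shorter lengths, and at 26 to 34 nt they lie above both wild-type lines in the right panel.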

How the data were processed

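Small RNAs of 6 libraries of cultured mouse cells were analysed, 1 per group. The deposited files hold raw counts that the authors made for each distinct read sequence. Per the submitters' processing notes, Bowtie and mm10 were used. How adapters were trimmed is not given in the sources used here. All sequences of 18 to 35 nt were matched exactly, on the sense strand, to the transcripts of GENCODE mouse release M21 (GRCm38) with numba 0.67.0 in Python 3.11.15 (numpy 2.4.6, scipy 1.17.1). The small RNA classes were its annotated biotypes, which hold no nuclear tRNAs. Reads of Mir5099 were left out of the microRNA total. Ratios are ratios of shares, with 95% intervals on the log scale, and shares have exact Clopper-Pearson intervals. PCR copies were not removed. Zeros entered medians at a floor of 3 reads.

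Named genes were the 20 with most 3′ UTR reads in the immunoprecipitate, the 3 highest and 3 lowest ratios of each comparison among genes of 500 or more reads, and leading members of the gene lists. 1 of the 20 is not reported here by name. The members and lists were chosen with earlier results of these data known. Matching and fold calls were tested on simulated data. Tails were read at starts defined by their first 20 nt. Alternatives covered the denominator, read minimum, size window, transcript, uniqueness and leading genes.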

Additional observations from a re-analysis of the deposited data

Results flagged for a closer look

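The NaIO4 ratio of the 3′ UTR piRNA share went opposite ways in both genotypes: 0.287 in mhen1-/- cells and 1.91 in wild type, a ratio of ratios of 0.150 (0.1495 to 0.1514). With 1 library per condition the difference was not tested beyond counting error.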

How the results depend on the processing

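No paired analysis was possible because each group had 1 library. Values stand in the order NaIO4 in wild type, NaIO4 in mhen1-/- cells, the ratio of these ratios (mhen1-/- over wild type), untreated mhen1-/- over wild type, mili-/- over wild type and immunoprecipitate over wild type. Per microRNA read the ratios were 24.9, 0.820, 0.0330, 3.55, 0.00861 and 45.9. Per piRNA-length read outside the small RNA classes they were 1.23, 0.714, 0.579, 0.966, 0.0482 and 1.17. With each distinct sequence counted once they were 1.24, 0.697, 0.562, 0.952, 0.0451 and 1.01. In these last 2 settings the mhen1-/- ratio to wild type changed direction, and the cause was not tested. For 26 to 30 nt they were 1.93, 0.284, 0.147, 1.29, 0.0117 and 2.04. With at least 2 reads in the library the first 4 were 1.97, 0.255, 0.130 and 1.32 and the last 1.90. Without genes matched within 1 mismatch elsewhere, the first was 1.92 and the last 4 were 0.149, 1.37, 0.0149 and 2.05. With the longest coding sequence mhen1-/- and mili-/- over wild type were 1.34 and 0.0169. Without the 10 leading genes the last 3 were 1.34, 0.0169 and 2.04. Leaving out Lars2 and Tmem38b, chosen after seeing the data, gave 0.285 for NaIO4 in mhen1-/- cells, 0.149 for the ratio of ratios, 0.00901 for mili-/- and 2.03 for the immunoprecipitate. Leaving out sequences 1 base from a far more abundant one, also chosen after seeing the data, moved no ratio beyond its interval.

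Genes at least 2-fold changed numbered 1979, 2917, 721, 2225 and 4292 with a minimum of 50 reads, and 403, 706, 105, 358 and 1168 with 500 reads, for the 5 comparisons without the ratio of ratios. Per microRNA read they were 2015, 103, 1603 and 3505 for all but mili-/-. The last decile of 3′ UTRs held 8.10% of immunoprecipitate reads with genes weighted equally and 7.71% pooled. Tailed reads in mhen1-/- cells were 14.6% where the first 20 nt occur in 1 gene and 15.9% otherwise. With 1 library a group, these intervals hold no spread between cultures, and nuclear tRNA fragments were not removed.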
